A study of Sus scrofa with 61 samples.

Results

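The genes described here encode translation factors and aminoacyl-tRNA synthetases, and their mRNA was followed in pig liver from the fetus to the adult. A gene was taken when its probe-sets carried 1 symbol that began with EIF or EEF and a digit, or that was made of 1 letter and ARS, with or without a closing digit. Of 6765 genes with such probe-sets, 60 met the rule. They comprised 36 genes with EIF symbols, 6 with EEF symbols, 12 cytosolic tRNA synthetases and 6 mitochondrial ones. Each gene was represented by the probe-set with the highest mean log2 signal over all arrays.

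Expression had been measured on 61 Affymetrix porcine arrays, 1 animal per array, in the liver of LP offspring, which are the progeny of German Landrace gilts that received a low protein diet while pregnant. The stages were 94 days post conception (94 dpc, n = 16) and 1 (n = 14), 28 (n = 15) and 188 (n = 16) days post natum (dpn). All animals shared the maternal diet, and arrays of offspring of adequately fed dams were not analysed here, so every difference below is one of stage and none is one of diet. Fetuses were taken by Caesarean section in an experiment of its own, while the later stages came from another, in which farrowing was induced, so that in period I (94 dpc to 1 dpn) and over the whole course (94 dpc to 188 dpn) stage cannot be told apart from experiment. Animals were fasted overnight before sampling at 28 and 188 dpn, which the study does not state for 1 dpn, so stage, feeding and fostering cannot be told apart in period II (1 to 28 dpn), whereas period III (28 to 188 dpn) set fasted animals against fasted animals. The study chose sib pairs within stages and spread each litter of the second experiment over the 3 postnatal stages, so animals can be related within and between those stages. The labels name neither sibs nor sex, and the tests treated animals as independent.

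Translation starts when eIF2 brings the initiator tRNA to the small ribosomal subunit, eIF3 holds that complex together, and the eIF4 factors bind the mRNA cap and unwind the leader until scanning factors settle on a start codon. Elongation factors then deliver each charged tRNA, and tRNA synthetases charge them, in the cytosol and, with a separate set of enzymes, in mitochondria. The liver makes most plasma proteins and synthesises protein heavily throughout life, and phosphorylation of eIF2 and release of eIF4E from its binding proteins are the classic points at which amino acid supply sets the rate.

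Over the 3 periods these genes mostly fell. From 94 dpc to 188 dpn 43 of the 53 genes that passed the filters fell and 5 rose, where 48% of all genes tested fell and 36.8% rose. To be tested, a gene had to exceed the median of its array in 50% or more of the animals of 1 stage, with an SD above 0.25 over the arrays compared, and a call needed P and q (limma, q after Storey) of at most 0.05. The falls took place in different periods for different roles. In period I 16 genes rose and 23 fell of 51 tested, against 33.9% and 35.4% of all genes. In period II 4 rose and 34 fell of 49 tested, against 33.1% and 39.1%. In period III 9 rose and 20 fell of 42 tested, against 21.6% and 39%. The share of tested members that fell was thus 45.1%, 69.4%, 47.6% and 81.1% in periods I, II and III and over the whole course, and its distance from the share of all genes was widest in period II and over the whole course.

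The median change of all 60 genes, tested or not, was -0.12, -0.39 and -0.06 on the log2 scale in periods I, II and III, and -0.66 over the whole course. Across all 6765 genes the corresponding medians were -0.01, -0.12, -0.09 and -0.21. Relative to these, the 60 genes moved by -0.11, -0.27, 0.02 and -0.45. The stage mean was highest at 94 dpc for 31 of the 60 genes (51.7%, against 35.9% of all genes) and lowest at 188 dpn for 31 (51.7%, against 38.4%). Signals did not overlap between the stages for 7 tested genes in period I, all lower at 1 dpn, for 8 in period II, of which 7 were lower at 28 dpn, for 0 in period III and for 25 over the whole course, of which 24 were lower. The shares of all tested genes without overlap were 10.1%, 10.7%, 1.94% and 29.6%.

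**Figure D1:**
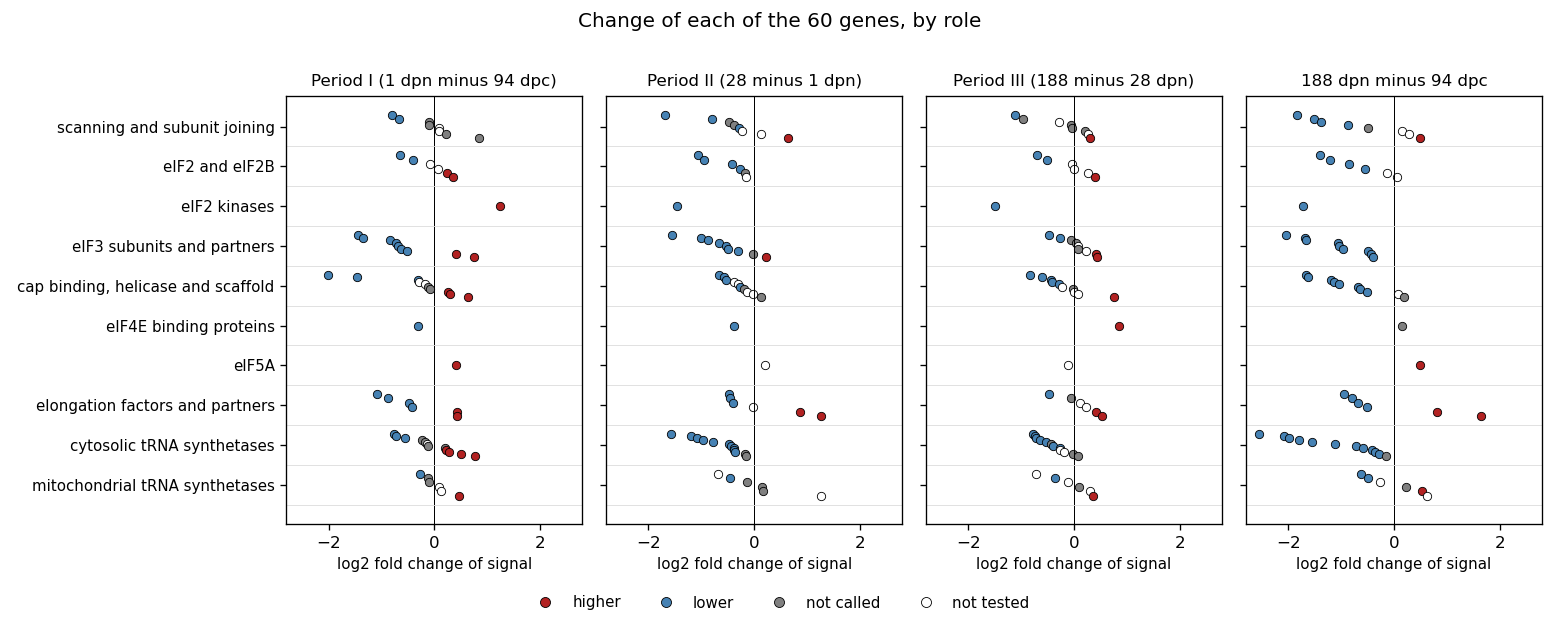
Log2 fold change of the signal (x axis, later stage minus earlier stage) of each of the 60 genes, 1 point per gene, in rows by role and in 1 panel per comparison; red and blue mark genes called higher and lower, grey those tested and not called, white those not tested. Cytosolic tRNA synthetases lie left of 0 in period II (10 of 12 called lower) and over the whole course (11 of 12), and eIF3 subunits over the whole course (9 of 9), counts that become 5 of 10, 6 of 12 and 6 of 9 when array medians are subtracted. Of all genes tested, 39.1% fell in period II and 48% over the whole course as deposited. With array medians subtracted 23.1% and 32% of all probe-sets tested fell in these comparisons.

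The deposited scaling bears on these counts. The authors had scaled every array to the same trimmed mean, and the array median nonetheless declined from 166 signal units at 94 dpc to 149, 117 and 101 at 1, 28 and 188 dpn (medians over animals). The median change over all probe-sets tested was therefore -0.16, -0.14, -0.14 and -0.43 in periods I, II and III and over the whole course. After quantile normalization these medians were -0.035, 0.024, 0.0031 and -0.017. The 60 genes then gave 14 higher and 24 lower of 53 tested in period I and 4 and 36 of 52 in period II. In period III they gave 10 and 16 of 39, and over the whole course 4 and 39 of 52. Of all probe-sets tested, 30.9% and 34.5%, 35.8% and 34%, 26.1% and 26.3%, and 40.9% and 41.8% were called higher and lower. With each array's median subtracted, the medians over all probe-sets became 0.02, 0.27, 0.07 and 0.32. Members called higher and lower then numbered 18 and 20, 12 and 15, 18 and 15, and 19 and 24, beside 33.4% and 32.3%, 48.2% and 23.1%, 30.8% and 20.9%, and 50.8% and 32% of all probe-sets tested, where the deposited scaling gave 26.1% and 41.6%, 28.9% and 41.4%, 18.3% and 35.7%, and 28.6% and 55%. The excess of falls in period II is therefore stated relative to the deposited scaling, and the count of falls in period II was as large under quantile normalization.

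**Figure D2:**
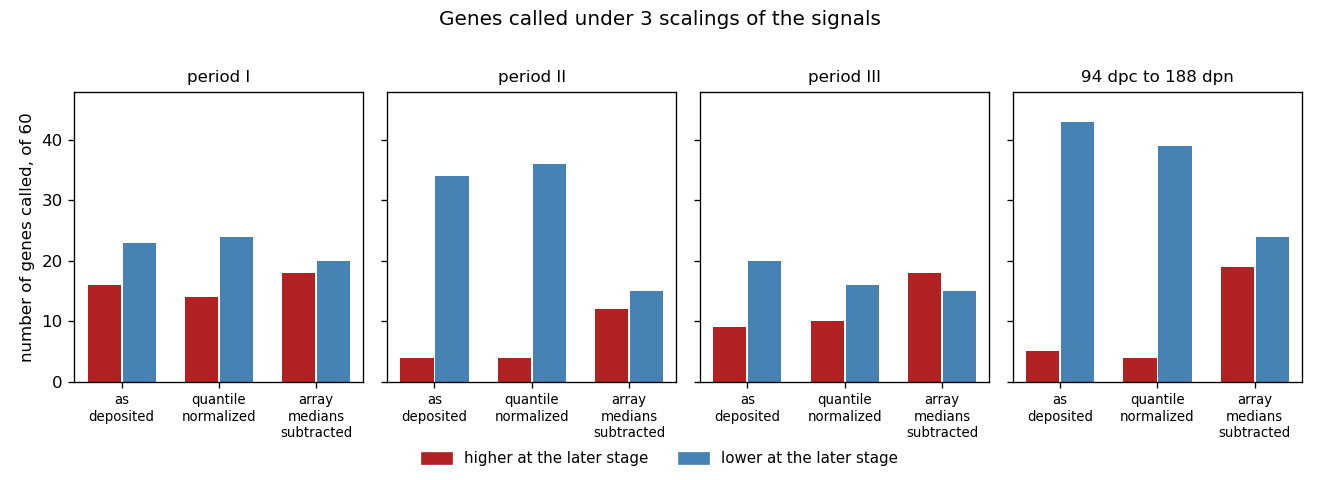
Number of the 60 genes called (y axis) in each comparison under 3 scalings of the signals; red bars count genes higher and blue bars genes lower at the later stage. Falls outnumber rises in period II as deposited (34 and 4) and after quantile normalization (36 and 4), and narrowly so with array medians subtracted (15 and 12), where rises outnumber falls in period III (18 and 15). Of all probe-sets tested in period II, 41.4%, 34% and 23.1% fell and 28.9%, 35.8% and 48.2% rose in these scalings, in that order. In period III 30.8% rose and 20.9% fell with array medians subtracted.

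The samples were liver by their markers. All 7 hepatocyte markers, among them albumin and transthyretin, lay above the array median at every stage. In period II 5 of the 6 tested fell, where 39.1% of all genes fell. Other cells changed with stage. The summed signal of 7 erythroid markers fell from a median of 13812 in fetuses to 2296 in newborns, with 3695 and 4018 afterwards. Of these 7, 6 fell in period I, where 35.4% of all genes fell. The sum of 4 granulocyte precursor markers was 11087, 3335, 543 and 647 at the 4 stages. That of 7 macrophage markers was 14649, 19771, 67168 and 60687. Of the 7, 5 rose in period II and 6 fell in period III, against 33.1% and 39% of all genes. The 7 proliferation markers all fell in period II, and the 6 tested in period III fell again, against 39.1% and 39% of all genes. Their sum moved from 4137 to 6482, 2515 and 701. T and NK cell markers, 0 of 8 above the array median at 94 dpc and 1 dpn, were above it for 6 of 8 at 28 dpn. In bulk tissue fewer cells of a type and less RNA per cell cannot be told apart, and the part of these cells in the results was not tested. The 3' minus 5' difference of the GAPDH controls, a measure of RNA quality, moved too. It averaged 1.06 at 94 dpc and 0.39, 0.79 and 0.64 at the later stages on the log2 scale. With the GAPDH difference as a covariate 8 rather than 16 genes rose in period I, where 22 fell. Of all probe-sets tested, 20.4% rose and 30.2% fell there with this covariate, against 26.1% and 41.6% without it. The GAPDH difference itself moved with stage, so calls lost with the covariate do not tell RNA quality from stage. The other controls moved otherwise and were higher at 28 and 188 dpn than before. Actin averaged 2.27, 1.78, 3.94 and 4.03 at the 4 stages, and EF1A -0.02, -0.14, 0.39 and 0.56. Neither was used as a covariate, so the GAPDH covariate does not cover the shift of these controls in period II.

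Among the factors of scanning and subunit joining, EIF1AX, which encodes eIF1A and helps to open the small subunit for scanning, was the one that fell most in period II, by its brightest probe-set. The signal of that probe-set was 709 to 1766 (median 1334) at 94 dpc, 771 to 1718 (median 1201) at 1 dpn, 152 to 679 (median 391) at 28 dpn and 171 to 677 (median 362) at 188 dpn. The 1 and 28 dpn animals did not overlap, and the pairs of stages before and after that step overlapped throughout. The fall in period II was 1.69 on the log2 scale (SE 0.17, q = 8.04e-11), and the changes in periods I and III, -0.10 and -0.05, were not called. The other EIF1AX probe-set gave 0.10 in period II, which was not called, and fell by 0.44 (SE 0.17) in period III, and the mean of both fell by 0.80 in period II, so the timing of the fall depends on the probe-set. Over the whole course both fell, by 1.84 and 0.58. EIF1B, a close relative of eIF1, rose in period II by 0.65 (SE 0.10, q = 2.02e-07), from a median of 2739 to 4605. For EIF1 itself the brightest probe-set varied too little to be tested in any period and rose by 0.49 over the whole course (q = 5.1e-08). The other rose by 0.35 in period I, fell by 0.63 in period II and rose by 0.41 in period III, and its 0.13 over the whole course was not tested.

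EIF2A and EIF2D can bring initiator tRNA without eIF2, and both fell in periods I and II. For EIF2A the changes were -0.66 (SE 0.10) and -0.79 (SE 0.11), for EIF2D -0.81 (SE 0.11) and -0.28 (SE 0.13). The EIF2D fall in period II was lost under 4 of the 14 alternatives, and its sign turned with array medians subtracted (0.06). EIF5B, the GTPase of subunit joining, fell in period III by 1.11 (SE 0.36, q = 0.00311), but not with the GAPDH covariate (-0.54). Its signal was near the array median, which it exceeded in 13 of 16 animals at 94 dpc and 7 of 16 at 188 dpn. EIF6, which keeps free large subunits from joining, rose in period III by 0.30 (SE 0.09, q = 0.00157). With the GAPDH covariate EIF6 was not called.

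EIF1AY, the Y-linked copy of eIF1A by the RefSeq table, gave no call in any comparison because its signal was split within every stage. At 94 dpc 8 animals lay between 2.07 and 11.4 and 8 between 749 and 1524, with nothing in between. At 1 dpn 6 animals lay at or below 84.1 and 8 at or above 477, at 28 dpn 7 at or below 42.8 and 8 at or above 266, and at 188 dpn 8 at or below 25.6 and 8 at or above 155. Sex is not in the labels, so this split was not set against it. A mean or a fold change of EIF1AY over a stage describes no animal here.

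The subunits of eIF2 rose before they fell. EIF2S2, the beta subunit, had signals of 1645 to 2578 (median 2035) at 94 dpc, 1974 to 3389 (median 2695) at 1 dpn, 936 to 1962 (median 1224) at 28 dpn and 467 to 1316 (median 766) at 188 dpn. All 28 dpn values lay below all 1 dpn values, whereas the other neighbouring stages overlapped. The changes were 0.36 (SE 0.09, q = 0.00013), -1.06 (SE 0.11, q = 2.33e-10) and -0.70 (SE 0.14, q = 4.29e-05). EIF2S1, the alpha subunit whose phosphorylation slows initiation, followed with 0.25 (SE 0.11), -0.96 (SE 0.12) and -0.50 (SE 0.12), from a median of 2775 over 3135 and 1548 to 1157. The rise of EIF2S1 in period I was lost under Benjamini-Hochberg adjustment, after quantile normalization and without arrays of outlying 3' to 5' differences, and became -0.15 with the GAPDH covariate. Both subunits fell in periods II and III under all 3 scalings.

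The exchange factor eIF2B, which recharges eIF2 with GTP, was less uniform. EIF2B1 fell in period I by 0.41 (SE 0.08) and in period II by 0.43 (SE 0.09), the first on its brightest probe-set alone (the other gave -0.07), and EIF2B2 fell in period I by 0.65 (SE 0.09). EIF2B4 fell in period II by 0.27 (SE 0.10, q = 0.00302), with 0.08 once array medians were subtracted and no call with the GAPDH covariate, and rose in period III by 0.40 (SE 0.10, q = 0.000325). EIF2B3 gave 0.06, -0.15 and -0.03 in the 3 periods and was not tested, its SD being below the filter.

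EIF2AK2, the interferon-inducible kinase PKR, which phosphorylates eIF2 alpha, was the only eIF2 kinase among the genes measured. Its signal was 70.5 to 733 (median 379) at 94 dpc, 392 to 2371 (median 751) at 1 dpn, 87.6 to 607 (median 258) at 28 dpn and 21.1 to 240 (median 114) at 188 dpn. Neighbouring stages overlapped in spite of the size of the steps, since animals of a stage differed widely. It rose by 1.24 (SE 0.25, q = 1.23e-05) in period I and fell by 1.46 (SE 0.26, q = 2.32e-06) in period II and by 1.51 (SE 0.29, q = 2.01e-05) in period III. The rise in period I was lost with the GAPDH covariate (0.62), and 9 of 16 animals exceeded the array median at 188 dpn.

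The 9 eIF3 genes measured gave a different course: 7 fell in period I and 2 rose, where 35.4% of all genes fell and 33.9% rose. EIF3E, a subunit of the complex with a PCI domain, had signals of 6299 to 10099 (median 8453) at 94 dpc, 2439 to 4271 (median 2771) at 1 dpn, 1374 to 2841 (median 2071) at 28 dpn and 831 to 4395 (median 1758) at 188 dpn. No fetus overlapped a newborn. EIF3E fell by 1.45 (SE 0.10, q = 8.29e-15) in period I and by a further 0.54 (SE 0.12, q = 3.68e-05) in period II, a call lost with array medians subtracted. EIF3H fell by 1.35 (SE 0.09, q = 7.33e-15), from a median of 10584 to 4128 without overlap, and then rose by 0.23 (SE 0.10) in period II, a call lost with the GAPDH covariate. EIF3K fell by 0.83 (SE 0.09), again without overlap, and EIF3A, EIF3D, EIF3L and EIF3M fell by 0.52 to 0.72. The counts were 7 lower and 2 higher also after quantile normalization and with array medians subtracted. Of all probe-sets tested, 34.5% fell and 30.9% rose in the first of these scalings and 32.3% and 33.4% in the second.

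The 2 that rose in period I were EIF3B and EIF3I, which bind each other in the complex. EIF3B had signals of 738 to 1446 (median 1100) at 94 dpc, 1270 to 2782 (median 1845) at 1 dpn, 503 to 852 (median 629) at 28 dpn and 394 to 622 (median 552) at 188 dpn. Every animal at 28 dpn lay below every animal at 1 dpn. EIF3B rose by 0.75 (SE 0.11, q = 1.96e-07) and fell by 1.55 (SE 0.12, q = 2.24e-13) and then by 0.27 (SE 0.09, q = 0.00337), a step that the SD filter kept out of the tests under 5 alternatives. EIF3I rose by 0.41 (SE 0.10), 0.06 with the GAPDH covariate, and fell by 0.87 (SE 0.10, q = 3.54e-09). So at 1 dpn 2 genes of the complex were at their highest stage mean and the other 7 were already below their fetal mean.

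In period II 7 of the 9 fell and 1 rose, against 39.1% and 33.1% of all genes, EIF3M by 1.00 (SE 0.12) and EIF3D by 0.67 (SE 0.09) without overlap. With array medians subtracted 4 of 8 tested fell and 2 rose, against 23.1% and 48.2% of all probe-sets tested. EIF3A fell in every period, by 0.72, 0.49 and 0.47 (SE 0.12, 0.12 and 0.14), but the second call was lost with array medians subtracted (-0.14) and the last with the GAPDH covariate (-0.27). In period III EIF3L rose by 0.44 (SE 0.08, q = 2.41e-05) and EIF3K by 0.42 (SE 0.09, q = 0.000154). Over the whole course all 9 fell, by 0.39 to 2.05, against 48% of all genes. After quantile normalization all 9 did so, against 41.8% of all probe-sets tested. With array medians subtracted 6 fell and EIF3I and EIF3K rose, where 32% of all probe-sets tested fell and 50.8% rose.

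**Figure D3:**
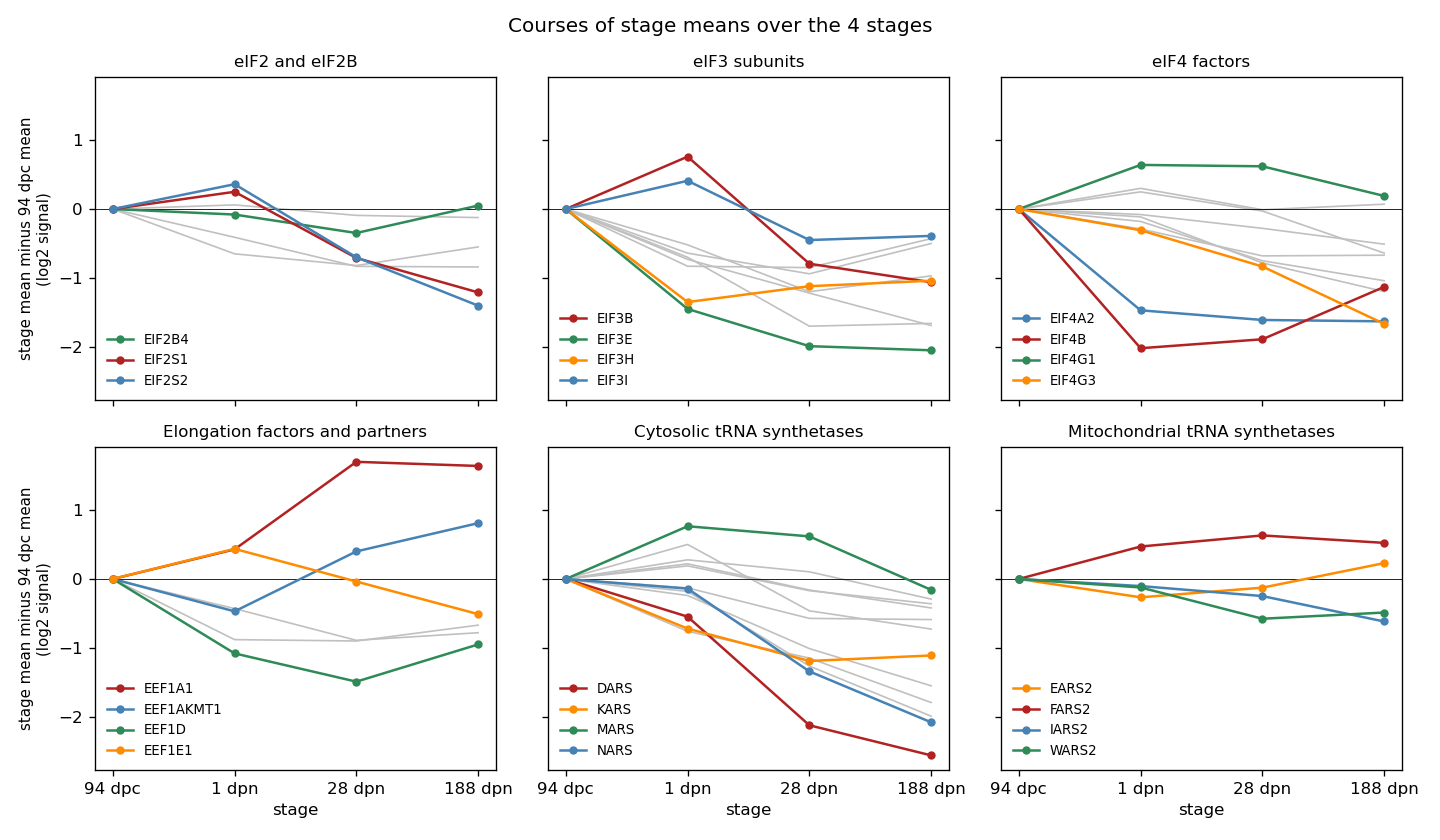
Stage mean of the log2 signal minus the 94 dpc mean of the same gene (y axis) over the 4 stages (x axis), 1 line per gene, in panels by role; coloured lines are named in each panel and grey lines are the other genes of the role (NARS2 and VARS2, below the array median in nearly all animals, are left out). EIF3B and EIF3I rise by 0.75 and 0.41 in period I while the other eIF3 genes go down. EEF1A1, by the brightest probe-set under that symbol, ends 1.64 above its fetal mean. Its other probe-sets changed by 1.82 and -1.71 over the whole course. Of those with the synonym EF1ALPHA 2 rose and 3 fell of 6 tested.

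Of the eIF4 factors, which bind the cap and open the leader, EIF4B changed most. eIF4B assists the helicase eIF4A. Its signal was 7075 to 11005 (median 9013) at 94 dpc, 1714 to 3776 (median 2099) at 1 dpn, 1918 to 3091 (median 2336) at 28 dpn and 2462 to 6107 (median 4666) at 188 dpn. The fetal animals stood above all others, and the 188 dpn animals lay between, overlapping those at 28 dpn. EIF4B fell by 2.02 (SE 0.10, q = 4.01e-18) in period I, which is 4.04-fold, and rose by 0.76 (SE 0.12, q = 8.64e-07) in period III, and it kept both calls under all 14 alternatives.

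EIF4A2, a helicase isoform, fell in period I by 1.47 (SE 0.08, q = 1.49e-16), from 21896 to 31970 (median 25285) at 94 dpc to 7575 to 11413 (median 9403) at 1 dpn, without overlap. Medians afterwards were 8276 and 8990. EIF4A2 was not tested in period II and not called in period III. EIF4A1, its paralogue, gave -0.08 in period I, was not called in periods I and II and was not tested in period III. Over the whole course EIF4A1 fell by 0.51 (SE 0.08), a call lost with array medians subtracted, where the change was 0.14. EIF4A3, the helicase of the exon junction complex, rose in period I by 0.30 (SE 0.10), a call lost with the GAPDH covariate.

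The scaffolds moved apart. EIF4G1, the main scaffold between cap and ribosome, had signals of 1653 to 3320 (median 2110) at 94 dpc, 2727 to 4655 (median 3108) at 1 dpn, 2663 to 4376 (median 3233) at 28 dpn and 1675 to 3534 (median 2326) at 188 dpn. It rose by 0.64 (SE 0.10, q = 3.33e-07) in period I and fell by 0.44 (SE 0.09, q = 9.27e-05) in period III, ending 0.18 (SE 0.10) above its fetal mean, which was not called. The other EIF4G1 probe-set rose alike in period I, by 0.63, but fell by 1.05 (SE 0.11, q = 5.07e-10) in period II and by 0.59 (SE 0.11, q = 7.75e-07) over the whole course, with no call in period III, so the course after birth and the sign of the net change depend on the probe-set. EIF4G3, a second scaffold, fell in every period, by 0.31, 0.53 and 0.83 (SE 0.12, 0.13 and 0.17), from a median of 495 over 417 and 296 to 156. The first of these falls was lost under both scalings and with the GAPDH covariate, and the second with array medians subtracted. EIF4G2, which lacks the cap-binding part, fell in periods II and III by 0.56 and 0.29 (SE 0.09 and 0.11), the second being lost under 3 alternatives, with values down to -0.13.

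EIF4E, the cap-binding protein, gave signals close to the array median, which it exceeded in 13 of 16, 10 of 14, 8 of 15 and 6 of 16 animals at the successive stages. Its signal was 117 to 328 (median 240) at 94 dpc, 130 to 351 (median 194) at 1 dpn, 78.3 to 201 (median 121) at 28 dpn and 33.4 to 181 (median 95.2) at 188 dpn, with overlap between all neighbouring stages. It fell by 0.67 (SE 0.16, q = 8.72e-05) in period II and by 0.42 (SE 0.17, q = 0.013) in period III, the second being lost under 4 alternatives, both scalings among them. EIF4E2, a cap-binding repressor, rose by 0.25 (SE 0.09), fell by 0.28 (SE 0.10) and fell by 0.61 (SE 0.10, q = 3.27e-06) on its brightest probe-set. The rise was lost with the GAPDH covariate and with the mean of probe-sets (0.04), and the fall in period II under 4 alternatives, becoming 0.07 with array medians subtracted. Another EIF4E2 probe-set gave -0.13 and 0.10 in periods I and III, neither called, and fell by 0.66 in period II.

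EIF4EBP2, the only eIF4E binding protein with a probe-set under the rule, rose in period III by 0.86 (SE 0.15, q = 6.51e-06). Its signal was 1359 to 2586 (median 1788) at 94 dpc, 834 to 3210 (median 1480) at 1 dpn, 677 to 1747 (median 1199) at 28 dpn and 1069 to 3143 (median 2242) at 188 dpn. The 2 later stages overlapped. All 5 of its probe-sets rose in period III, by 0.52 to 0.86. In periods I and II the 5 disagreed: the brightest fell by 0.32 and 0.38, while another rose by 0.40 and 0.54, so no direction is given for those periods.

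EIF5A, which helps the ribosome past stalling sequences, rose in period I by 0.41 (SE 0.10, q = 8.8e-05) on its brightest probe-set, and by 1.72 (SE 0.17) on the other, which fell again by 1.41 (SE 0.13, q = 1.55e-11) in period II. The brightest gave 0.20 in period II and was not tested there. Both probe-sets thus rose in period I, and they differed in what followed.

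**Figure D4:**
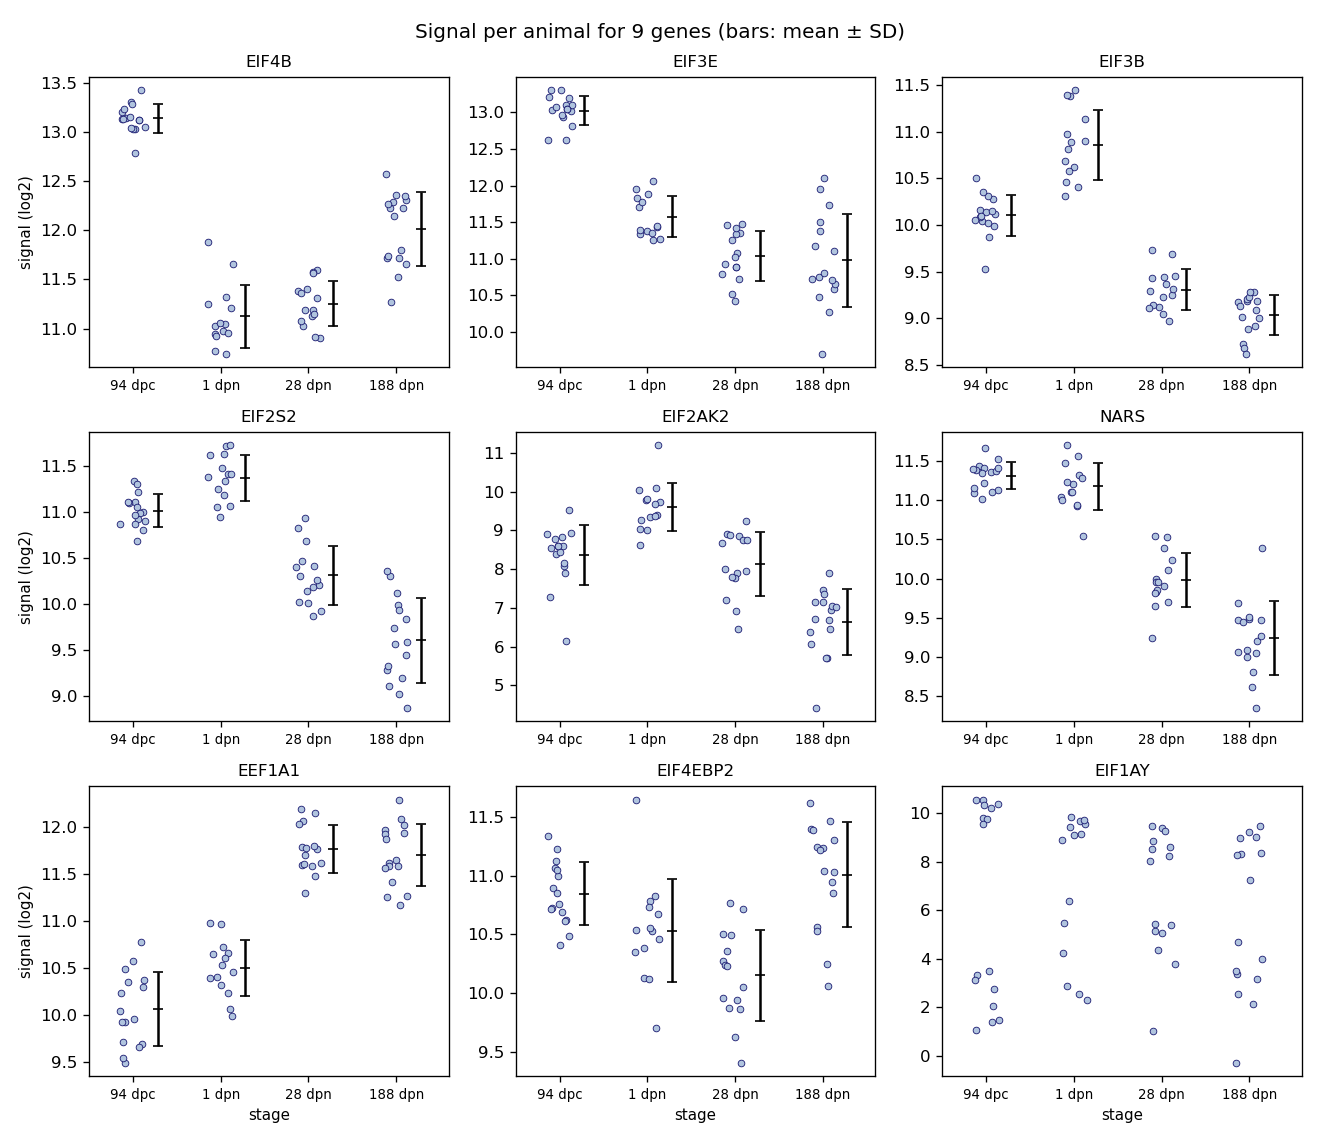
Log2 signal (y axis) of 9 genes in each animal (points) at the 4 stages (x axis), with mean ± SD beside the points except for EIF1AY. EIF4B at 94 dpc lies above all later animals, EIF3B and EIF2S2 peak at 1 dpn and do not overlap between 1 and 28 dpn, and EIF1AY is split into a low and a high set at every stage, with 8 animals in the high set each time.

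Among the elongation genes, the subunits of the complex that reloads eEF1A with GTP fell in period I. EEF1D fell by 1.08 (SE 0.09, q = 4.54e-12), from 11010 to 17301 (median 13765) at 94 dpc to 4311 to 8363 (median 6838) at 1 dpn, without overlap. EEF1B2 fell by 0.88 (SE 0.10, q = 9.54e-10), its range of 34820 to 75680 (median 54087) overlapping that of the newborns, 24341 to 37387 (median 26915), only at the edge. EEF1G fell by 0.43 (SE 0.09, q = 1.29e-05). In period II EEF1G and EEF1D fell further, by 0.46 and 0.41, the EEF1D call being lost with array medians subtracted (-0.06) and with the GAPDH covariate. In period III EEF1D rose by 0.53 (SE 0.11, q = 3.14e-05).

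EEF1A1, the factor that carries charged tRNA to the ribosome, cannot be given 1 direction. The brightest probe-set under its own symbol, controls aside, had signals of 721 to 1754 (median 1028) at 94 dpc, 1020 to 2026 (median 1448) at 1 dpn, 2527 to 4685 (median 3493) at 28 dpn and 2307 to 5025 (median 3183) at 188 dpn. It rose by 0.43 (SE 0.13) in period I and by 1.26 (SE 0.11, q = 3.26e-12) in period II, without overlap between 1 and 28 dpn. A second probe-set rose alike, by 0.40 and 1.03, while another fell by 1.99 (SE 0.14, q = 5.63e-14) in period I. The mean of the 3 gave -0.39 in period I, and the rise there was also lost with the GAPDH covariate. A further 7 probe-sets carry the symbol EF1ALPHA, which the rule does not take although the RefSeq table lists it as a synonym of EEF1A1. Of these, 4 fell and 0 rose in period I, while in period II 2 rose and 0 fell of 5 tested. The changes of those tested in period II ran from 0.03 to 4.80, and those not tested gave -0.24 and -0.75. Over the whole course 2 rose and 3 fell of 6 tested. The brightest of the 7, with a mean log2 signal of 15.71, was among those that fell, by 0.51 (SE 0.09, q = 8.03e-07). The control probe-set of the middle of the transcript, left out of the tests, had mean log2 signals of 16.02, 15.83, 15.48 and 15.38 at the 4 stages. EEF1A2, EEF2 and EEF2K had no probe-set under the rule.

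The partners of elongation had courses of their own. EEF1AKMT1, a methyltransferase of eEF1A, was the only gene to fall in period I and rise in both later periods, with -0.47 (SE 0.11), 0.87 (SE 0.11, q = 7.15e-09) and 0.41 (SE 0.10, q = 0.000236), the first call being lost with the GAPDH covariate. Its medians were 1914, 1227, 2337 and 3164. EEF1E1, which sits in the multi-synthetase complex, rose by 0.44 (SE 0.15) and then fell by 0.47 in each later period (SE 0.15 and 0.13), and its change in period I was -0.18 with the GAPDH covariate, which also ended the call in period II, as did subtracting array medians.

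The cytosolic tRNA synthetases fell after birth. In period I 4 of 11 tested rose and 3 fell, near the 33.9% and 35.4% of all genes. In period II 0 of 12 rose and 10 fell, against 33.1% and 39.1% of all genes. In period III 0 of 10 rose and 7 fell, against 21.6% and 39%. After quantile normalization 0 rose, and 9 of 12 and 6 of 10 fell in periods II and III. Of all probe-sets tested, 35.8% and 26.1% then rose and 34% and 26.3% fell. With array medians subtracted 0 rose, and 5 of 10 fell in each of these periods. Of all probe-sets tested, 48.2% and 30.8% rose and 23.1% and 20.9% fell in that scaling. Their median change relative to that of all genes was -0.12, -0.34 and -0.33 in periods I, II and III.

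NARS, which charges asparagine tRNA, had signals of 2079 to 3261 (median 2654) at 94 dpc, 1494 to 3351 (median 2291) at 1 dpn, 603 to 1493 (median 995) at 28 dpn and 324 to 1345 (median 600) at 188 dpn. The highest animal at 28 dpn lay just under the lowest at 1 dpn. NARS fell by 1.20 (SE 0.12, q = 1.46e-10) in period II and by 0.74 (SE 0.15, q = 4.02e-05) in period III, and by 2.08 over the whole course, which is 4.22-fold. RARS, the arginine enzyme, ran a like course with falls of 1.08 (SE 0.11, q = 2.39e-10) and 0.73 (SE 0.14, q = 2.52e-05), its 1 and 28 dpn animals again not overlapping. DARS, the aspartate enzyme, fell by 0.55 (SE 0.19) in period I and by 1.58 (SE 0.21, q = 1.46e-08) in period II, from a median of 748 over 514 to 171.

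DARS gave the most negative change of the 60 genes over the whole course, -2.56 (SE 0.28, q = 4.26e-11), with 274 to 1212 at 94 dpc and 12.7 to 246 at 188 dpn. GARS, the glycine enzyme, fell by 0.77 (SE 0.13) and 0.54 (SE 0.10, q = 1.58e-05) in periods II and III, and its other 2 probe-sets fell by 2.17 and 1.39 in period II. LARS, the leucine enzyme, fell in every period, by 0.77, 0.39 and 0.64 (SE 0.15, 0.15 and 0.14), the middle one being lost under both scalings and with the GAPDH covariate. KARS, the lysine enzyme, fell in period I and again, by 0.47, in period II: 14735 to 18503 (median 16580) at 94 dpc stood clear of 7723 to 14054 (median 9747) at 1 dpn, where it fell by 0.73 (SE 0.08, q = 3.27e-10). The second fall of KARS was lost with array medians subtracted, and the period I fall of DARS was on its brightest probe-set alone (the other gave -0.06).

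MARS, VARS, HARS and SARS, the methionine, valine, histidine and serine enzymes, rose in period I. MARS had signals of 409 to 774 (median 606) at 94 dpc, 672 to 1332 (median 987) at 1 dpn, 635 to 1227 (median 859) at 28 dpn and 271 to 681 (median 524) at 188 dpn. It rose by 0.77 (SE 0.10, q = 2.25e-08), stayed at -0.15 without a call in period II, and fell by 0.78 (SE 0.11, q = 3.3e-07) in period III. Over the whole course MARS gave -0.16, which was not called, and 0.49, called higher, with array medians subtracted. VARS rose by 0.50 (SE 0.13) and fell by 0.96 (SE 0.14, q = 9.34e-08) in period II. HARS and SARS rose by 0.28 and 0.22 (SE 0.11 and 0.10), and the rise of SARS was lost after quantile normalization and with the mean of its probe-sets.

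AARS, the alanine enzyme, fell by 0.37 (SE 0.09) in period II on its brightest probe-set and rose by 0.79 (SE 0.16, q = 1.6e-05) on the other. Over the whole course the brightest fell by 0.37 (SE 0.12) and the other rose by 0.71 (SE 0.14, q = 2.08e-06). The direction of AARS in both comparisons thus depends on the probe-set. WARS, the tryptophan enzyme, fell by 0.44 (SE 0.16, q = 0.00223) in period II, a call lost under 3 alternatives, while its other 2 probe-sets gave -0.23 and 0.17, neither called. Over the whole course 11 of the 12 cytosolic enzymes fell as deposited, AARS by its brightest probe-set alone, where 48% of all genes fell. After quantile normalization 9 fell, where 41.8% of all probe-sets tested fell. With array medians subtracted 6 fell and 4 rose, AARS, HARS, MARS and SARS, where 32% and 50.8% of all probe-sets tested did.

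The complex that holds many of these enzymes, and the synthetases named otherwise, were represented by 5 of 9 listed genes. All 5 fell in period II, where 39.1% of all genes fell, as did 5 of 5 after quantile normalization and 4 of 4 tested with array medians subtracted. Of all probe-sets tested, 34% and 23.1% fell in these scalings, in that order. EPRS, the joint glutamate and proline enzyme, fell by 1.57 (SE 0.15) in period II and 0.67 (SE 0.15) in period III. FARSA, FARSB and AIMP2 rose in period I, by 0.68, 0.27 and 0.50, and fell in period II by 0.83, 0.85 and 0.85. AIMP1, a scaffold of the complex, fell in period I by 0.88 (SE 0.09) and in period II by 0.42 (SE 0.09).

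Few of the mitochondrial tRNA synthetases were tested, and their calls went both ways. In period I 1 rose and 1 fell of 4 tested, against 33.9% and 35.4% of all genes. In period II 0 rose and 1 fell of 4, against 33.1% and 39.1%. In period III 1 rose and 1 fell of 3, against 21.6% and 39%. Counts this small give the set no course that differs from all genes. The median change of all 6 was -0.011, -0.0030 and -0.0091, beside -0.01, -0.12 and -0.09 for all genes. FARS2, the phenylalanine enzyme, rose by 0.47 (SE 0.12, q = 0.00015) in period I, from a median of 601 to 820, a call lost with the GAPDH covariate. WARS2 fell in period II by 0.45 (SE 0.10), which array medians subtracted did not keep, IARS2 fell in period III by 0.37 (SE 0.10), and EARS2 rose in period III by 0.36 (SE 0.11) after a fall of 0.27 in period I that 6 alternatives did not keep. NARS2 and VARS2 were below the array median in nearly all animals and were not tested. The difference between the mitochondrial and the cytosolic set was not tested. Of 8 further mitochondrial translation factors measured, TUFM, the mitochondrial elongation factor Tu, rose in period I by 0.57 (SE 0.09) and in period III by 0.30 (SE 0.10), while MTRF1L, a release factor, fell in periods I and II by 0.41 and 0.79.

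Genes of the integrated stress response, which eIF2 phosphorylation sets off through the factor ATF4, were followed as context. Of 25 listed, 17 were measured; 4 rose and 7 fell of 15 tested in period I, 3 and 8 of 17 in period II, and 4 and 8 of 17 in period III. The shares that fell were 46.7%, 47.1% and 47.1%, against 35.4%, 39.1% and 39% of all genes. The shares that rose were 26.7%, 17.6% and 23.5%, against 33.9%, 33.1% and 21.6%. ATF4 itself fell by 0.24 (SE 0.12) and 0.43 (SE 0.10) in periods II and III. ASNS, which makes asparagine and is a standard ATF4 target, fell in every period, by 0.36, 3.49 and 1.58 (SE 0.12, 0.26 and 0.24), and by 5.44 over the whole course. ALDH18A1 and PYCR1, enzymes of proline synthesis, and PSPH, of serine synthesis, fell in periods II and III, with changes from -2.35 to -1.08. Other genes of the list rose in these periods, with changes of up to 0.85 and 1.00. CTH, the transsulfuration enzyme, rose in period I by 1.59 (SE 0.18), as did ATF5, by 1.42 (SE 0.37).

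Of 23 listed genes around mTORC1, the kinase complex that frees eIF4E from its binding proteins, 11 were measured. In period I 5 of 9 tested rose and 1 fell, against 33.9% and 35.4% of all genes, in period II 1 of 10 rose and 4 fell, against 33.1% and 39.1%, and in period III 2 of 8 rose and 3 fell, against 21.6% and 39%. With array medians subtracted 5 of 8 rose and 2 fell in period II, beside 48.2% and 23.1% of all probe-sets tested. Over the whole course 8 of 9 then rose and 1 fell, beside 50.8% and 32%. As deposited 2 of 9 rose and 5 fell over the whole course, beside 36.8% and 48% of all genes. RHEB, the activator of mTORC1, rose by 0.67 (SE 0.07) and fell by 0.81 (SE 0.08) and 0.26 (SE 0.10). LAMTOR2, part of its lysosomal anchor, rose by 0.88 (SE 0.10) and 0.26 (SE 0.10) in periods I and II. PRKAA1, which encodes a kinase subunit of the energy sensor AMPK, rose by 0.41 (SE 0.14) and then fell by 1.46 (SE 0.14) and 0.49 (SE 0.15). Of 4 genes of termination and poly(A) binding, PABPC1 and PABPC4, which link the mRNA tail to eIF4G, fell in period I by 0.94 (SE 0.08) and 1.15 (SE 0.12).

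Taking the 3 periods as a sequence of calls, the most frequent course in the deposited scaling, shared by 7 genes, was a rise in period I followed by falls in periods II and III. These were EIF2S1, EIF2S2, EIF2AK2, EIF3B, EIF4E2, EEF1E1 and VARS. The count depends on the processing: 3 of the 7 kept all their calls after quantile normalization, 3 with array medians subtracted and 2, EIF2S2 and EIF3B, with the GAPDH covariate, and the fall of VARS in period III was lost under 7 of the 14 alternatives. EIF2S2 alone kept this course under every alternative. A further 6 genes, EIF2A, EIF2D, EIF3E, EIF3M, DARS and KARS, fell in periods I and II with no call in period III. EIF3A, EIF4G3 and LARS fell in all 3, and EIF3L, EEF1D and EIF4EBP2 fell, fell again and rose, the last with the disagreement between probe-sets given above. EIF1, EIF2B3, EIF4H, NARS2 and VARS2 were tested in no period by their brightest probe-sets, although the other EIF4H probe-set fell by 0.40 and 0.83 in periods I and II. Adjacent periods share the animals of the stage between them, so a high or low set of animals at that stage pushes the changes of both periods in opposite directions. Courses were not tallied for all genes, so whether these numbers of members differ from the share of all genes was not tested.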

How the data were processed

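The authors deposited 1 linear intensity per probe-set and array, scaled globally, with GCOS 1.1.1 named in the submitters' processing notes. Each array had a trimmed mean (2% at each end) between 500.127 and 500.229. The study's own analysis worked on GC-RMA values with MAS5 calls and with terms for mother, sex and weight, none of which was used here. The log2 of each signal was analysed. Of 24123 probe-sets, 124 controls were left out and 10069 carried 1 symbol of the platform annotation. Of the 60 genes, 59 were in the RefSeq table of the pig (Sscrofa11.1), used for names alone, and 22 had several probe-sets (90 in all). The number of arrays limits the precision.

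Stages were compared, later minus earlier, with limma 3.58.1 in R 4.3.3 (two-sided, stage as the only term, all probe-sets that passed the filters given with the results), with q after Storey (lambda 0.05 to 0.95 in steps of 0.05, spline with 3 df). The fit was tested on simulated data. Array weights used statmod 1.5.0. There were 14 alternatives, 2 of them other scalings. Up to 10 rises and 10 falls per comparison, genes called in all 3 periods and 18 listed regulators were to be named; other genes were named to account for every member. Members, roles and context lists were chosen with earlier results of these data known. Replicates are separate animals, and sibs were not modelled.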

Additional observations from a re-analysis of the deposited data

How the results depend on the processing

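Of the single-gene changes recomputed under the 14 alternatives, 2538 kept their direction and side of the threshold, 73 lost the call, 42 gained one and 27 changed sign. Calls kept under all 14 numbered 25 of 39 in period I, 17 of 38 in period II, 18 of 29 in period III and 25 of 48 from 94 dpc to 188 dpn. With array medians subtracted, 12 genes rose and 15 fell in period II (4 and 34 as deposited), and 18 rose in period III (9). Over the whole course 19 rose and 24 fell (5 and 43). Of all probe-sets tested in that scaling, 48.2% rose and 23.1% fell in period II and 30.8% rose in period III. Over the whole course 50.8% rose and 32% fell. Subtracting medians raises all later stages by construction, since array medians declined. With the GAPDH 3' to 5' difference as a covariate 8 genes rose in period I (16) and 8 over the whole course (5), and the cause was not tested. Of all probe-sets tested, 20.4% (26.1% as deposited) and 26.2% (28.6%) rose in these comparisons. No paired analysis was possible because the labels give no shared replicate numbers.

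Signs changed in period I with the GAPDH covariate for EEF1E1 (-0.18), EIF2S1 (-0.15), EIF4EBP2 (0.20) and EARS2 (0.0862), and, where all probe-sets of a gene were averaged, for EEF1A1 (-0.39) and SARS (-0.0079). In period II they changed with array medians subtracted for EIF4E2 (0.0692), EIF2B4 (0.0791), EIF2D (0.0647) and EIF3K (0.33), and with the mean of probe-sets for AARS (0.21). Over the whole course they changed with array medians subtracted for EIF4A1 (0.14), EIF4E2 (0.0133), AARS (0.29), HARS (0.36), MARS (0.49), SARS (0.23), WARS (0.0616), EIF3I (0.26), EIF3K (0.22), EIF3L (0.16), EEF1E1 (0.14), IARS2 (0.0338) and WARS2 (0.17), after quantile normalization for HARS (0.12) and WARS2 (0.0588), and with the mean of probe-sets for AARS (0.17).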
